A study of Homo sapiens with 6 samples.

Results

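Glycolysis and the pentose phosphate pathway were described through 31 genes, which were the rows of the deposited count table that carried the symbols of glucose and lactate transporters and for the enzymes of both routes. They are 31 of the 42656 rows of the table. RNA came from TOV21G, an established line of ovarian clear cell carcinoma, grown with 15% serum and collected 3 days after lentiviral transduction at a multiplicity of infection of 50. The control arm is labelled WT and received a scrambled hairpin (shCtrl), and the other arm is labelled MEX3A knockdown and received a hairpin against the RNA-binding protein MEX3A (shMEX3A). Each arm had 3 libraries and 1 hairpin, so an effect of that hairpin on other transcripts cannot be told apart from an effect of MEX3A. Whether an arm's libraries stem from different cultures is not in the labels; the spread behind each p-value is that between these libraries and may be technical.

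Glycolysis splits glucose into pyruvate in the cytosol. Glucose enters through GLUT transporters, is trapped as a phosphate by hexokinase and is committed by phosphofructokinase, which the PFKFB enzymes steer by making or removing its strongest activator. Pyruvate is then either reduced to lactate, which leaves the cell through the MCT transporters, or imported into mitochondria. The pentose phosphate pathway branches off at glucose phosphate: its oxidative part makes NADPH, and its non-oxidative part exchanges sugar phosphates between ribose and glycolysis. Many tumours make lactate even when oxygen is present, and clear cell carcinomas are known for their stores of glycogen.

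Library totals lay between 34662635 and 48228216 counts. Levels are given as TMM-scaled CPM, the count of a gene relative to the size of its library. In such bulk libraries fewer cells of a type and less RNA per cell cannot be told apart. A gene was called when its adjusted p was under 0.05 in edgeR's quasi-likelihood test over 15679 genes. MEX3A stood at 68.8, 70.7 and 67.6 CPM in the shCtrl libraries and at 19.6, 21.0 and 22.2 CPM in the shMEX3A libraries, a level 3.31-fold lower. Of 10 clear cell markers, all 10 passed the low-count filter. Genes of low level also pass it, so this does not establish the identity of the line. Means in shCtrl ran from 0.415 CPM for the protease NAPSA to 2841 CPM for SPP1. The factor PAX8 had 192, EPCAM 5.71, KRT7 2.64 and FXYD2 2.48 CPM. In shMEX3A 4 of the 10 rose and 4 fell (80% called beside 69.7% of all genes tested). Of 6 markers each, 1 was tested for leukocytes, 2 for fibroblasts and 2 for endothelium. Their summed levels in shCtrl and shMEX3A were 7.09 to 8.35 and 8.65 to 9.002 CPM for leukocytes, 5.33 to 5.98 and 9.26 to 11.6 CPM for fibroblasts, and 0.595 to 0.723 and 0.679 to 0.993 CPM for endothelium. CD3E, KDR and EMCN had no count in any library, and the fibroblast markers PDGFRB, PDGFRA, LUM and FAP each had means under 0.2 CPM in both arms. The tested fibroblast markers both rose: DCN from 4.86 ± 0.193 to 9.07 ± 0.861 CPM and COL6A3 from 0.440 ± 0.185 to 1.08 ± 0.233 CPM. The endothelial CDH5 rose from 0.0424 ± 0.0160 to 0.432 ± 0.123 CPM, PECAM1 was at 0.505 and 0.291 CPM with no call, and the leukocyte marker CD68 rose from 7.07 ± 0.530 to 8.46 ± 0.140 CPM. The part of other cells in the differences of the members was not tested.

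The pathway did not move as a block: its enzymes and transporters changed in both directions, and often in opposite directions within one step. Of the 30 members tested, 12 rose and 14 fell in shMEX3A, with a median log2 fold change of -0.08. The largest rises were in SLC16A3 and SLC2A3, transporters for lactate and glucose, and the largest falls in PFKFB2 and LDHB. The 26 called members are 86.7% of those tested, beside 69.7% of all genes tested and 79.2% of the tested genes that averaged at least 10 CPM, as all 30 members did. By direction, 40% of members rose where 34% of all genes did, and 46.7% fell where 35.6% of all genes did. Changes of at least 0.5 on the log2 scale were called in 6 members (20%), against 33.2% of all genes, and the median absolute change was 0.27 in members and 0.35 in all genes. The libraries of the arms did not overlap in 27 of the 30 members (90%), compared with 72.3% of all genes. For the size of changes and the overlap of arms, all genes include ones that averaged under 10 CPM. These comparisons are therefore not matched for level. Of all counts, 2.02% ± 0.0244 of the shCtrl arm and 1.80% ± 0.00453 of the shMEX3A arm fell on the 31 members (SD, n = 3 each; two-sided exact permutation p = 0.1, the smallest that 3 against 3 allows).

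**Figure D1:**
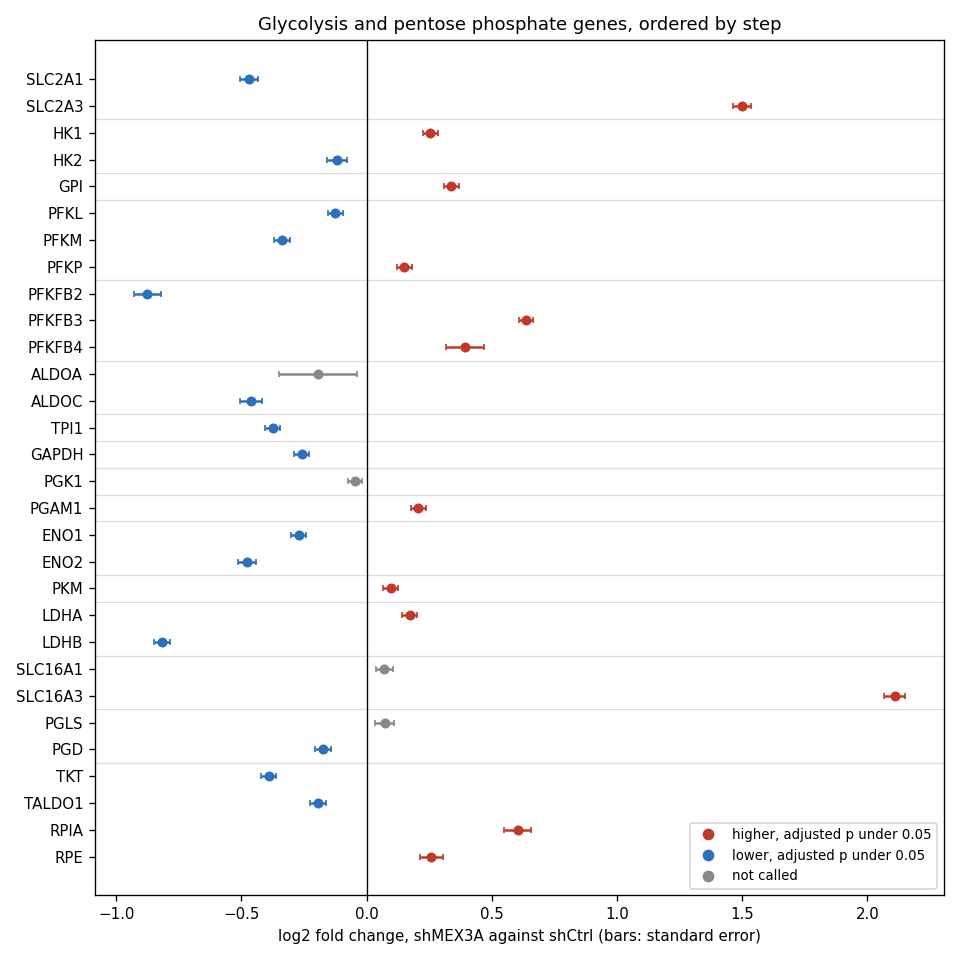
Log2 fold change of shMEX3A against shCtrl (horizontal axis) for the 30 tested genes, ordered by step from glucose uptake to the non-oxidative pentose phosphate branch, with grey lines between steps. Points are edgeR estimates, bars are standard errors, red marks a rise, blue a fall and grey no call; SLC16A3 (2.11) and SLC2A3 (1.498) lie farthest to the right and PFKFB2 (-0.88) farthest to the left.

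The promoters of 4 members, chosen after the results were seen, are shown first, since the lactate dehydrogenase isozymes moved apart and SLC16A3 and PFKFB3 rose. Each line holds the 250 bases before a RefSeq transcription start (GRCh38.p14), read in the direction of the gene; where a gene has several starts, the window with most matches is given. Capitals mark ACGTG on either strand, a form of the core of the element that hypoxia-inducible factors bind, and no other form was searched.
LDHA (chr11:18394313-18394562, plus strand): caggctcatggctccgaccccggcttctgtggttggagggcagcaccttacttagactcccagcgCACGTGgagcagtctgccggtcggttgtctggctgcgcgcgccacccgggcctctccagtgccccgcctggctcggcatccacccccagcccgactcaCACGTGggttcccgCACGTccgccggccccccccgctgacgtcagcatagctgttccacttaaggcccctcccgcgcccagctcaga
LDHB (chr12:21657843-21658092, minus strand): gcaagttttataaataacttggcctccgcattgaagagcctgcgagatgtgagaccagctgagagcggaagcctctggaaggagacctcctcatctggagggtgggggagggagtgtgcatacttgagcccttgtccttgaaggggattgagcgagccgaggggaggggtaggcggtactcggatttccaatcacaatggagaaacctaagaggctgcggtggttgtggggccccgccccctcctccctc
SLC16A3 (chr17:82228792-82229041, plus strand): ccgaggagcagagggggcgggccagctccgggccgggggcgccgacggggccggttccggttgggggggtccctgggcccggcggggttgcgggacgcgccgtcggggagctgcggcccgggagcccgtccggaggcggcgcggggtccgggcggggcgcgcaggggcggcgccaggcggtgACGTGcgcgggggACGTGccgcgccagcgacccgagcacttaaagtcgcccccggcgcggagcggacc
PFKFB3 (chr10:6202682-6202931, plus strand): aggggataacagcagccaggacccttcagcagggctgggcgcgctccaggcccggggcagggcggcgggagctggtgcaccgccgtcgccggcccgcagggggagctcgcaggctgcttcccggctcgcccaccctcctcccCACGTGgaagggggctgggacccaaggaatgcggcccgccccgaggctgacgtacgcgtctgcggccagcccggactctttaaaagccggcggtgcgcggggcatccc

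LDHA held 3 such sites in its window, SLC16A3 held 2, PFKFB3 held 1 and LDHB held 0. The core lay before 1 of 2 starts of LDHA, 1 of 5 of SLC16A3 and 1 of 2 of PFKFB3. HK2 and ALDOC, which fell, also held 2 sites in a window. A palindromic CACGTG, which matches on both strands, was counted as 1 site. RefSeq promoters were found for 28 of the 31 members, and not for SLC2A3, PFKFB2 and SLC16A1. Of the 28, 14 (50%) carried the core before at least 1 of their starts, as did 21.7% of all 27305 genes with a promoter. Members have 53 windows, of which 17 (32.1%) held the core, against 18.5% of all 35116 windows. A gene with more starts has more windows to match, and the genes with a promoter include ones not tested here. These shares therefore come from unlike sets. The core was present in 5 of the 11 members that rose and in 7 of the 13 that fell. A match says that these letters are present and does not show that a factor binds there, or which factor would.

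Messenger RNA of the glucose transporters shifted from SLC2A1 towards SLC2A3. SLC2A3 encodes GLUT3, a transporter of high affinity for glucose, and is annotated in GENCODE 29 (GRCh38) at chromosome 12, 7919230 to 7936275, minus strand. It stood at 58.2, 57.0 and 60.4 CPM in the shCtrl libraries and at 170.3, 163 and 163 CPM in the shMEX3A libraries. All 3 shMEX3A libraries were thus above all 3 controls, and the level was 2.82-fold higher (log2 fold change 1.498, SE 0.036, adjusted p = 3.35e-30, edgeR). SLC2A1, which encodes the widespread transporter GLUT1, stood at 99.2, 95.8 and 101 CPM in shCtrl and at 71.8, 70.0 and 72.3 CPM in shMEX3A. It fell in every shMEX3A library, to a level 1.38-fold lower (log2 fold change -0.47, SE 0.036). Per kilobase of transcript, SLC2A3 made up 35.7% ± 0.217 of the pair in shCtrl and 68.5% ± 0.588 in shMEX3A (SD, n = 3; two-sided exact permutation p = 0.1). The summed level of both rose from 41.9 ± 1.18 to 61.7 ± 1.21 CPM per kilobase. SLC2A14, a close copy of SLC2A3 with which reads could be shared, had a mean of 0.0170 CPM in shCtrl and 0.113 CPM in shMEX3A.

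**Figure D2:**
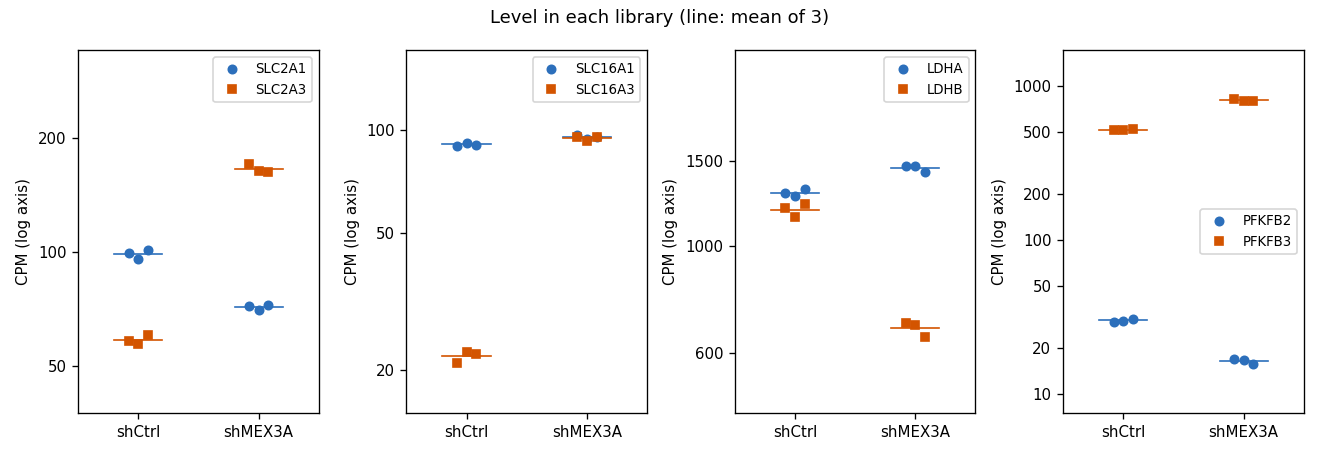
Level of 4 pairs of related genes in each library, in CPM on a log axis, with 3 shCtrl and 3 shMEX3A libraries per gene and a line at each mean. SLC2A3 passed SLC2A1, SLC16A3 reached the level of SLC16A1, LDHB fell away from LDHA, and PFKFB3 rose from 520 to 808 CPM while PFKFB2 fell from 30.0 to 16.3 CPM on average.

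The hexokinases, which trap glucose in the cell, shifted little. HK1, the form found in most tissues, stood at 352, 354 and 350.3 CPM in shCtrl and at 408, 434 and 417 CPM in shMEX3A (log2 fold change 0.25, SE 0.030, adjusted p = 1.59e-09, edgeR). HK2, the inducible form of muscle and many tumours, stood at 54.6, 57.5 and 57.2 CPM and then at 53.6, 51.1 and 51.2 CPM (a log2 fold change of -0.12, SE 0.040). Neither gene's arms overlapped, yet for HK2 the lowest shCtrl library lay close to the highest shMEX3A library. The most abundant hexokinase was HKDC1, a paralogue outside the 31 genes and named here after its values were seen, with 463 ± 7.30 CPM in shCtrl and 492 ± 12.9 CPM in shMEX3A. Per kilobase HKDC1 made up 53.9% ± 0.259 of the 3 enzymes in shCtrl and 51.5% ± 0.327 in shMEX3A, and HK2 4.20% ± 0.108 and 3.48% ± 0.165. The rise of HKDC1 (log2 fold change 0.09, adjusted p = 0.00942, edgeR) was not called without shCtrl replicate 3 (adjusted p = 0.0537), without shMEX3A replicate 2 (0.0832) or with GC and length offsets (0.463). GPI, which converts glucose phosphate to fructose phosphate, rose from 476 ± 16.8 to 602 ± 11.2 CPM (a log2 fold change of 0.34, SE 0.030).

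The messenger RNA of phosphofructokinase, the committing step, changed little in summed level while the mix of its forms moved. PFKP, the platelet form, stood at 757, 764 and 753 CPM in shCtrl and rose to 838, 845 and 842 CPM (a log2 fold change of 0.15, SE 0.028). PFKM, the muscle form, went the other way, from 196, 206 and 205 CPM to 156, 168 and 157 CPM (a log2 fold change of -0.34, SE 0.033). PFKL, the liver form, moved from 257, 262 and 259 CPM to 233, 241 and 239.6 CPM (a log2 fold change of -0.12, SE 0.030). PFKP was the main form in every library, with 64.4% ± 0.348 of the level per kilobase in shCtrl and 70.0% ± 0.447 in shMEX3A. The 3 forms summed to 444 ± 3.99 CPM per kilobase in shCtrl and to 453 ± 4.76 CPM per kilobase in shMEX3A, a change of 2.17%. The highest shCtrl library (448.1) lay just under the lowest shMEX3A library (448.8). With GC and length offsets PFKL was at -0.38, PFKM at -0.36 and PFKP at 0.06, and the sum was not computed with them.

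The enzymes that make or remove the activator of phosphofructokinase diverged more. PFKFB3, whose product favours making the activator, lies on chromosome 10 from 6144934 to 6254644. It stood at 516, 520.0 and 523 CPM in shCtrl and at 824, 802 and 798 CPM in shMEX3A, a level 1.55-fold higher (log2 fold change 0.64, SE 0.029, adjusted p = 2.63e-21, edgeR). PFKFB2, the form known from heart, lies on chromosome 1 from 207034366 to 207081024 and fell from 29.25, 29.9 and 30.8 CPM to 16.9, 16.5 and 15.6 CPM (a log2 fold change of -0.88, SE 0.055). The arms of both genes were far apart compared with the spread of their libraries. PFKFB4 was the least abundant, with 9.83, 9.37 and 9.004 CPM in shCtrl and 13.0, 12.7 and 11.3 CPM in shMEX3A (log2 fold change 0.39, SE 0.076). PFKFB3 held 94.4% ± 0.041 of the 3 forms per kilobase in shCtrl, so the fall of PFKFB2 concerned a small part of that step. FBP1, the enzyme of gluconeogenesis that reverses the step, had 3, 5 and 2 counts in the shCtrl libraries and 0, 3 and 0 in the shMEX3A libraries, did not pass the low-count filter and was not compared.

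From aldolase to enolase most members were lower in shMEX3A. TPI1, which interconverts the triose phosphates, fell from 1328 ± 28.8 to 1024 ± 3.56 CPM (a log2 fold change of -0.37, SE 0.029), and GAPDH from 4873 ± 94.8 to 4072 ± 22.3 CPM (a log2 fold change of -0.26, SE 0.030). GAPDH is the enzyme that couples triose oxidation to phosphate and a common reference gene in expression assays. In single libraries it lay at 4769, 4893 and 4956 CPM in shCtrl and at 4072, 4049 and 4094 CPM in shMEX3A, so the arms did not overlap. ENO1, the main enolase, fell from 2169 ± 52.9 to 1797 ± 11.4 CPM (a log2 fold change of -0.27) and the neuronal form ENO2 from 86.4 ± 1.65 to 62.1 ± 0.781 CPM (a log2 fold change of -0.48). ALDOC, the brain aldolase, fell by 0.46 on the log2 scale. PGAM1, which moves the phosphate between carbons, rose instead, from 372 ± 5.02 to 429 ± 6.80 CPM (a log2 fold change of 0.21, SE 0.029). PGK1, the first step of glycolysis that yields ATP, had 658 ± 18.8 and 637 ± 9.88 CPM, and its difference of -0.05 on the log2 scale (SE 0.030, adjusted p = 0.162, edgeR) was not called. PKM, the pyruvate kinase of most tumours, rose from 2507 ± 34.3 to 2681 ± 40.7 CPM (a log2 fold change of 0.10, SE 0.029), and gene counts do not separate its M1 and M2 splice forms.

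ALDOA, the aldolase of muscle and most tumours, was listed at 15.5, 15.4 and 10.95 CPM in shCtrl and at 11.45, 11.5 and 13.8 CPM in shMEX3A, and its arms overlapped. Its counts came to 3141 over the 6 libraries, against 283937 for the next enzyme TPI1. In RefSeq (GRCh38.p14), 99.9% of the span of ALDOA on chromosome 16, from 30064279 to 30070420, lies inside another gene, LOC112694756, which held 464 counts, and 53.5% of its exon bases in GENCODE 29 lie under exons of other genes. The part of this overlap in the low count was not tested, and neither the level of ALDOA nor its share of the aldolases is taken as a measurement of the step. The difference of -0.19 on the log2 scale (SE 0.154) was not called (adjusted p = 0.305, edgeR). Without shCtrl replicate 3 it was -0.35 with an adjusted p of 0.000138, and with no low-count filter -0.21 with an adjusted p of 0.012, both in edgeR.

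The messenger RNA of lactate dehydrogenase shifted in share from LDHB to LDHA, mainly through the fall of LDHB. LDHA, the subunit that favours making lactate from pyruvate, stood at 1288, 1269 and 1313 CPM in shCtrl and at 1467, 1465 and 1429 CPM in shMEX3A (log2 fold change 0.17, SE 0.029, adjusted p = 2.26e-06, edgeR). LDHB, the subunit typical of heart, stood at 1202, 1150 and 1221 CPM in shCtrl and at 693, 688 and 649 CPM in shMEX3A (log2 fold change -0.82, SE 0.031, adjusted p = 2.26e-23). Both genes had arms that did not overlap, and the fall of LDHB was the larger of these changes. Per kilobase, LDHA rose from 44.5% ± 0.3995 to 61.4% ± 0.501 of the pair (SD, n = 3; two-sided exact permutation p = 0.1). The summed level of both subunits went from 1510 ± 37.3 to 1232 ± 28.0 CPM per kilobase. LDHA lies on chromosome 11 from 18394388 to 18408425, and LDHB on chromosome 12, where 33.4% of the exon bases of its GENCODE 29 model lie under exons of another gene on the same strand.

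**Figure D3:**
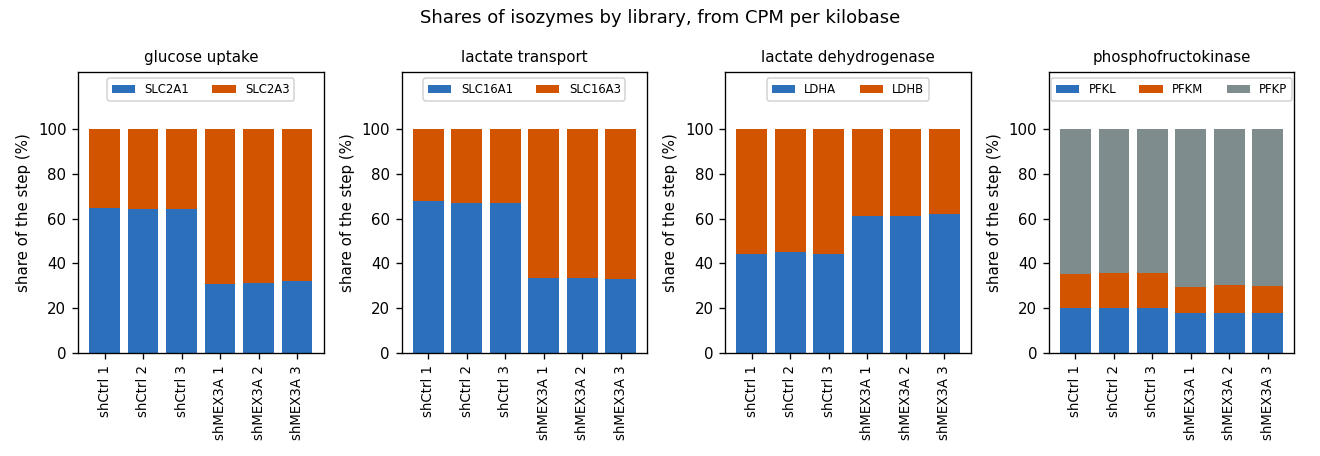
Share of each gene in the summed level per kilobase of its step, in percent, for each of the 6 libraries as stacked bars. The 3 libraries of an arm are alike, and the boundary moves between the arms in glucose uptake (SLC2A3 from 35.7% to 68.5%), lactate transport (SLC16A3 from 32.7% to 66.6%) and lactate dehydrogenase (LDHA from 44.5% to 61.4%), and less in phosphofructokinase (PFKP from 64.4% to 70.0%).

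Lactate transport showed the largest change of the pathway. SLC16A3 encodes MCT4, the exporter typical of cells that make much lactate, and lies on chromosome 17 from 82228397 to 82261129. It stood at 21.0, 22.5 and 22.3 CPM in shCtrl and at 95.4, 92.7 and 95.5 CPM in shMEX3A, a level 4.31-fold higher (log2 fold change 2.11, SE 0.042, adjusted p = 1.22e-32, edgeR). SLC16A1 encodes MCT1, which carries lactate in either direction, and stood at 89.7, 91.7 and 90.5 CPM and then at 96.7, 93.8 and 95.1 CPM. The arms of SLC16A1 did not overlap, and its difference of 0.07 on the log2 scale (SE 0.035) was not called (adjusted p = 0.0662, edgeR). It was called in 4 of 17 alternatives. These were GC and length offsets (0.16, adjusted p = 3.06e-05), genes with a GC value without offsets (0.0150), at least 1 CPM in 3 libraries (0.0297) and DESeq2 size factors (0.0393), all in edgeR. The share of SLC16A3 in this pair per kilobase was 32.7% ± 0.622 in shCtrl and 66.6% ± 0.212 in shMEX3A, or 12.5% and 37.0% if the length of all exons of a gene was used in place of its principal transcripts.

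BSG, basigin, is the partner that MCT1 and MCT4 need to reach the cell surface, and it fell. It stood at 915, 898 and 858 CPM in shCtrl and at 282, 295 and 304.5 CPM in shMEX3A, a level 3.03-fold lower (log2 fold change -1.60, SE 0.032, adjusted p = 5.85e-32, edgeR). The summed level of both lactate transporters per kilobase was 0.0723 ± 0.0033 of that of BSG in shCtrl and 0.464 ± 0.0206 in shMEX3A (SD, n = 3; two-sided exact permutation p = 0.1). EMB, embigin, a relative of BSG that also escorts monocarboxylate transporters, rose from 7.22 ± 0.320 to 13.9 ± 1.28 CPM (a log2 fold change of 0.93, SE 0.080). BSG thus stayed above the summed transporters in both arms, by a much smaller margin in shMEX3A. These are messenger RNA levels, and the amount of protein at the cell surface was not measured in these libraries.

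In the pentose phosphate pathway the abundant enzymes fell and the scarce ones rose. PGD, the dehydrogenase that makes NADPH in the oxidative branch, went from 571, 557 and 528 CPM to 481, 507 and 480.1 CPM (a log2 fold change of -0.17, SE 0.032). PGLS, the lactonase before it, stood at 85.05, 79.2 and 80.4 CPM and at 83.2, 83.7 and 90.8 CPM with overlapping arms and no call (log2 fold change 0.07, adjusted p = 0.0964, edgeR). It was called without shCtrl replicate 1 (0.10, adjusted p = 0.0210, edgeR). The same held with at least 1 CPM in 3 libraries (0.0395) and for genes with a GC value without offsets (0.0256). In the non-oxidative branch TKT, transketolase, fell from 1438, 1421 and 1369 CPM to 1034, 1094 and 1096 CPM (a log2 fold change of -0.39, SE 0.031). TALDO1, transaldolase, fell from 225, 217 and 214 CPM to 184, 193 and 196 CPM (a log2 fold change of -0.19, SE 0.032). The enzymes that interconvert the pentose phosphates moved up. RPIA, which makes ribose phosphate, lies on chromosome 2 from 88691644 to 88750935 and rose from 18.8, 18.4 and 17.8 CPM to 27.1, 27.5 and 29 CPM (a log2 fold change of 0.60, SE 0.055, adjusted p = 2.38e-12, edgeR). RPE, the epimerase, rose from 35.0, 33.7 and 35.9 CPM to 42.2, 40.2 and 43.1 CPM (a log2 fold change of 0.26, SE 0.046), and 23.8% of its exon bases lie under exons of KANSL1L on the opposite strand. The summed level per kilobase of the non-oxidative branch went from 669 ± 16.03 to 541 ± 16.9 CPM per kilobase.

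In order of level per kilobase, GAPDH led in both arms (3615 ± 70.3 CPM per kilobase in shCtrl). It was followed in shCtrl by TPI1 (1079 ± 23.4), ENO1 (1051 ± 25.6) and PKM (923 ± 12.6), and the spreads of TPI1 and ENO1 overlapped. In shMEX3A the order after GAPDH was PKM (987 ± 15.0), ENO1 (871 ± 5.53) and TPI1 (832 ± 2.89), each outside the library spread of its neighbour. That spread leaves out the choice of transcript length, on which this order depends. The principal lengths are 2717 bases for PKM, 2063 for ENO1 and 1231 for TPI1. Their exon union lengths are 8571, 5276 and 2700 bases, and ranks on those lengths were not computed. SLC16A3 moved from rank 25 to rank 19 and SLC2A3 from 23 to 20, while SLC2A1 moved from 20 to 23. The lowest of the tested members in shCtrl was PFKFB4 with 2.62 ± 0.116 CPM per kilobase.

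Other enzymes of the pathway were read from a list of 35, of which 18 passed the low-count filter. Among these 5 rose and 8 fell, with a median of -0.12. The called share of 72.2% is close to the 69.7% of all genes tested. H6PD, which makes NADPH in the endoplasmic reticulum, rose by 0.48 (0.26 with GC and length offsets), the ribokinase RBKS by 0.43 and the ADP-dependent glucokinase ADPGK by 0.21 on the log2 scale. PRPS2, which turns ribose phosphate into the precursor of nucleotides, went from 44.4 ± 2.12 to 25.45 ± 0.0723 CPM (a log2 fold change of -0.80, SE 0.048). PGM2L1, which makes glucose bisphosphate, changed by -0.79 and the D-lactate dehydrogenase LDHD by -0.56.

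Of 17 other transporters and their partners, 10 were tested, 4 rose and 5 fell (90% called beside 69.7% of all genes; median -0.22 beside -0.01). Beside BSG and EMB, the urate and hexose carrier SLC2A9 rose by 0.91 and SLC2A12 by 0.57, while the inositol carrier SLC2A13 changed by -0.78 and SLC2A11 by -0.30. SLC2A12 had overlapping arms, and leaving out shCtrl replicate 3 ended its call (0.40, adjusted p = 0.0612, edgeR).

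**Figure D4:**
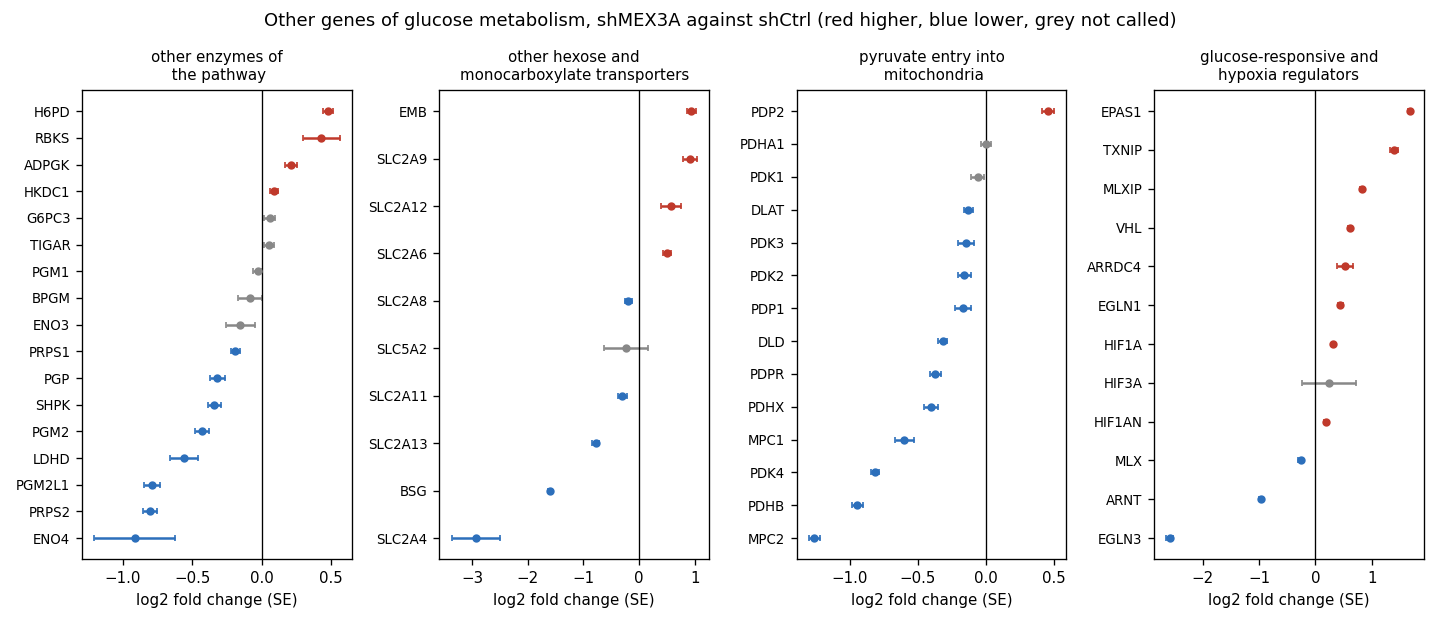
Log2 fold change of shMEX3A against shCtrl for tested genes of 4 lists around the pathway (1 of the first list is left out), with standard errors as bars, each panel sorted by value and with its own horizontal range. Red points rose, blue fell and grey were not called; in the panel of pyruvate entry 11 of 14 genes fell and 1 rose, and in the panel of regulators 8 of 12 rose.

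Most genes of a list around pyruvate entry into mitochondria were lower in shMEX3A. The list mixes carrier subunits, subunits of pyruvate dehydrogenase, and kinases and phosphatases that switch this enzyme off or on. Its counts therefore give no direction for the use of pyruvate. Of 14 tested, 11 fell and 1 rose, with a median of -0.24 beside -0.01 for all tested genes, and 85.7% were called beside 69.7% of all genes. Falls were called in 35.6% of all genes. MPC2, a subunit of the mitochondrial pyruvate carrier, stood at 90.1, 84.0 and 90.4 CPM in shCtrl and at 35.8, 37.0 and 38.0 CPM in shMEX3A (log2 fold change -1.26, SE 0.040, adjusted p = 4.32e-26, edgeR). PDHB, a subunit of the pyruvate dehydrogenase E1 enzyme, changed by -0.94 (SE 0.039), and PDK4, a kinase that switches that enzyme off, by -0.81 (SE 0.030). The phosphatase PDP2, which switches it on, was the one that rose, by 0.46 (SE 0.046). PDHB and the kinase PDK4 thus both fell at the level of messenger RNA.

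Regulators that respond to glucose or oxygen formed a list of 14, of which 12 were tested, 8 rose and 3 fell (91.7% called beside 69.7% of all genes; median 0.38 beside -0.01). Rises were called in 34% of all genes. EPAS1, the hypoxia-inducible factor HIF-2 alpha, stood at 405.5, 419 and 403 CPM in shCtrl and at 1302, 1314 and 1312 CPM in shMEX3A (log2 fold change 1.68, SE 0.030, adjusted p = 5.86e-34, edgeR). Its partner ARNT went from 111 ± 1.01 to 57.0 ± 1.41 CPM (a log2 fold change of -0.96, SE 0.036), and EGLN3, a prolyl hydroxylase and itself a known target of these factors, was 6.01-fold lower. HIF1A, named after its values were seen, rose by 0.32 (SE 0.030). So did EGLN1, another prolyl hydroxylase, from 56.8 to 77.4 CPM (a log2 fold change of 0.44), where EGLN3 had 7.95 CPM in shMEX3A. VHL rose by 0.61 and HIF1AN by 0.18, and these too were named after their values were seen. TXNIP, an inhibitor of glucose uptake that responds to glucose, rose from 10.4 ± 0.869 to 27.3 ± 2.89 CPM (a log2 fold change of 1.40, SE 0.075), and the glucose-sensing factor MLXIP by 0.83, while its partner MLX changed by -0.26. Whether any of these bears on the members was not tested.

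GC content and transcript length moved with some of these differences. With offsets for both, LDHA (transcript GC 44.0%) was at 0.38 instead of 0.17 and RPE (36.6%) at 0.47 instead of 0.26 on the log2 scale, PFKL (64.1%) at -0.38 instead of -0.12, PFKP at 0.06 instead of 0.15, HK2 at -0.19 instead of -0.12, PFKFB4 at 0.25 instead of 0.39 and PGD at -0.10 instead of -0.17. All 26 called members kept their call and direction there. SLC16A3 was at 1.86, SLC2A3 at 1.54, LDHB at -0.61 and PFKFB3 at 0.48. TKT (-0.58), SLC2A1 (-0.57) and ENO2 (-0.51) passed 0.5 in absolute value with these offsets, and PFKFB3 no longer did.

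**Figure D5:**
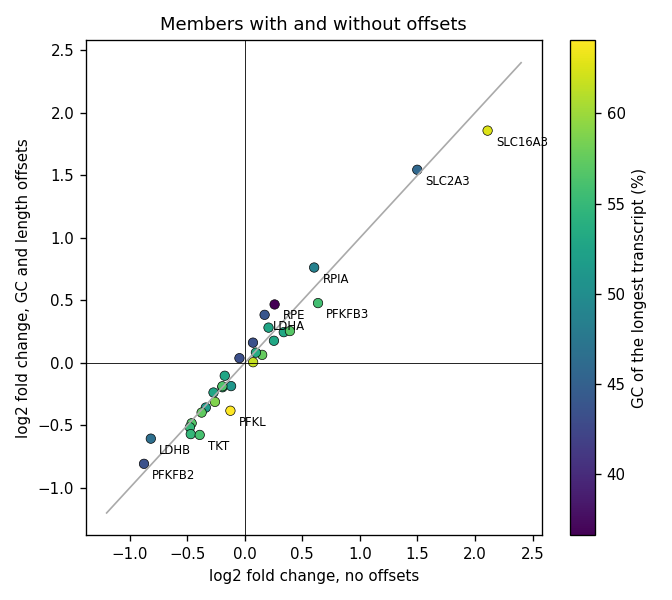
Log2 fold change of the 30 tested members without offsets (horizontal axis) and with offsets for GC content and transcript length (vertical axis), coloured by the GC content of the longest transcript; the grey line marks equal values. Members of low GC such as RPE (0.26 to 0.47) lie above the line and PFKL (-0.12 to -0.38), with a GC of 64.1%, lies below it.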

How the data were processed

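The 6 TOV21G libraries, 3 per arm, were made from total RNA with an mRNA kit, per the labels' protocols. The authors deposited raw read counts per gene, 1 column per library, matched to samples by library name. The tools named in the submitters' processing notes are HTSeq 2.0.4, STAR, edgeR 4.0.16 and fastp 0.20.0, with the build GRCh38 and no role or order. Strand setting and annotation release were not given in the sources used here, so reads of overlapping genes cannot be assigned with certainty. Of 42656 rows, 41709 carried a RefSeq symbol.

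The test on the counts used edgeR 4.0.16 under R 4.3.3 (filterByExpr, TMM, robust quasi-likelihood fit, 4 residual degrees of freedom) and adjusted by Benjamini-Hochberg over 15679 genes. The standard error is the log2 fold change divided by the root of F. TMM takes most genes as unchanged, so changes are relative to other genes, and fewer cells or less RNA per cell would not be seen. Here 69.7% of the tested genes were called, 34% higher and 35.6% lower. Small differences of members therefore rest on this choice of reference. Levels per kilobase divide CPM by the median length of the APPRIS principal transcripts in GENCODE 29; which transcripts the cells use is not known. Libraries of an arm differed beyond sampling noise (chi-square per degree of freedom 2.69 to 6.14).

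Members and lists were chosen with earlier results of these data known. Values per library are given for members called with at least 0.5 on the log2 scale and for steps whose members moved apart; from other lists, up to 3 called genes of at least 1 CPM per direction were named. HKDC1 and HIF1A are named outside this rule. EGLN1, VHL and HIF1AN are as well, and they are not among the named genes followed through the alternatives. One gene of the list of other enzymes enters its counts but is not reported here.

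The alternatives were upper-quartile factors, a filter of at least 1 CPM in 3 libraries, no filter, size factors of DESeq2, its own test (DESeq2 1.42.0), voom in limma 3.58.1, the replicate number as a block, no mitochondrially encoded genes, GC and length offsets (splines with 5 degrees of freedom, 13828 genes), pseudogene counts added, and each library left out. Added after seeing the data were the genes with a GC value without offsets, and exon union lengths for shares.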

Additional observations from a re-analysis of the deposited data

How the results depend on the processing

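The 26 called members kept their call and direction under all 17 alternatives of the test, and the count of members higher stayed between 12 and 14 and of members lower between 14 and 15. Their median ranged from -0.13 to -0.05 and MEX3A from -1.85 to -1.68 on the log2 scale. Of the values for named genes, 905 kept their side of the threshold, 9 gained a call (SLC16A1, PGLS and ALDOA) and 4 lost one (HKDC1 and SLC2A12). No pairing by replicate number was seen. Same-numbered libraries had correlations of their deviations from -0.077 to 0.077, and their own number was the best match for 2 of 6 libraries. Counting noise of all tested genes enters these deviations, so the check cannot exclude a pairing. With the replicate block 12 members were higher and 14 lower, all genes gave 5247 higher and 5504 lower, the median of members was -0.08, MEX3A was at -1.73, and no call of a member changed. Pseudogene rows, matched by symbol, were found only for TPI1 (2 rows) and PGAM1 (1 row), and held at most 0.134% of the counts of a member. For the other members no row was matched, so adding pseudogene counts could not change their own counts. Reads shared with their pseudogenes were not assessed. Exon union lengths, chosen after seeing the data, gave SLC2A3 31.2% and 64.0%, LDHA 34.2% and 50.8%, and PFKP 73.4% and 78.2% of their steps in shCtrl and shMEX3A. FBP1 lies under the depth at which it could be compared.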
